A study of Mus musculus with 53 samples.

Results

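Gpr153, Igdcc4, Myo9a, Fam214b, Acap2 and Ttyh1 are 6 of 12372 genes measured by RNA sequencing in the brains of SCA3 and wild-type mice. They were selected on the measured difference of their SCA3 effect between brain regions, so that difference and the regional fold changes are given below as a description of the selection. In the test of region dependence 27 genes (0.218% of the table) had a false discovery rate (FDR) below 0.05, and the 6 genes were among them. Their FDR ran from 0.00127 for Gpr153 to 0.0314 for Acap2. The last gene inside the threshold of this test was AI118078 (0.0485) and the first outside it was Col6a3 (0.0516), neither of which was selected. By edgeR's quasi-likelihood test none of the 6 genes passed for region dependence (FDR 0.0547 to 0.156).

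The mice were hemizygous MJD84.2 animals, which model spinocerebellar ataxia type 3, and C57BL/6 wild-type mice. The line carries a human ATXN3 transgene with a lengthened CAG repeat, driven by its native promoter and not limited to a tissue, while mouse Atxn3 is still present. Every comparison is thus of 1 transgenic line with wild-type mice. Every SCA3 mouse also weighed less than every wild-type mouse, so body weight cannot be told apart from genotype here. All mice were male, untreated and 74 to 77 weeks old. The behavioural tests, listed at younger ages only, detected no ataxic phenotype. Their only significant difference was a faster crossing of the beam by SCA3 mice. Brainstem was sampled from 8 wild-type and 6 SCA3 mice, cerebellum from 7 and 6, cortex from 7 and 6, and striatum from 8 and 5, with 1 library per mouse and region (53 libraries, 14 mice). Levels are read counts scaled by the normalised library total (CPM). A fold change compares SCA3 with wild-type on the log2 scale and is given with its standard error (SE). Library totals lay between 31680939 and 76703758 counts, and the 6 genes had between 597 and 34852 counts in a library.

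Ataxin-3, the protein made from ATXN3, is a deubiquitinating enzyme, and its expanded form accumulates in neurons in SCA3. Brainstem, cerebellum and basal ganglia are among the regions affected in the human disease. The 6 genes do not form a pathway. Gpr153 encodes a class A orphan G protein-coupled receptor and Igdcc4, also called Nope, a surface protein of the immunoglobulin superfamily related to the netrin receptor Dcc. Myo9a encodes an unconventional myosin, and Acap2 a GTPase-activating protein for Arf6, a regulator of membrane traffic. Ttyh1 encodes a tweety family membrane protein that is abundant in astrocytes and neural progenitors. The function of Fam214b is poorly characterised.

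On the mouse genome build GRCm38 the genes lie on 4 chromosomes. Gpr153 (chr4:152274232-152285337, forward strand) and Fam214b (chr4:43032414-43046220, reverse strand) share a chromosome, as do Igdcc4 (chr9:65101486-65137940) and Myo9a (chr9:59750896-59928866), both on the forward strand. Acap2 lies at chr16:31092412-31201245 on the reverse strand and Ttyh1 at chr7:4119408-4136708 on the forward strand. Gpr153 and Igdcc4 overlapped no other annotated gene. Exons of Myo9a touch those of the antisense gene Gm20275 and the pseudogene Gm48805, and exons of Fam214b touch those of Gm26643 and Gm26881, none of which is in the table. Ttyh1 is overlapped by 2 antisense genes that are in the table, 9430041J12Rik at its start and D030047H15Rik at its end. Reads were counted without strand, so in the stretches that these pairs share the strand of origin of a read cannot be told.

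The promoters of the 2 chromosome 4 genes that were both lower in SCA3 striatum are shown because their levels moved together there. Each is the 250 bases before a RefSeq transcription start on GRCm38.p6, printed 5′ to 3′ along the gene, and capitals mark the GC box GGGCGG or its reverse complement CCGCCC. The Gpr153 window is chr4:152273862-152274111 on the forward strand and the Fam214b window chr4:43046221-43046470 on the reverse strand.
Gpr153: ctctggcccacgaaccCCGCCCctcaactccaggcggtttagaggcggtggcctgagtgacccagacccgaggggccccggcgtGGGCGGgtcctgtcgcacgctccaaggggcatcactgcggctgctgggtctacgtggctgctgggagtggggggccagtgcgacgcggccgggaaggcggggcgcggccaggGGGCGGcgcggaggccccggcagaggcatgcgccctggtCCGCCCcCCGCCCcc
Fam214b: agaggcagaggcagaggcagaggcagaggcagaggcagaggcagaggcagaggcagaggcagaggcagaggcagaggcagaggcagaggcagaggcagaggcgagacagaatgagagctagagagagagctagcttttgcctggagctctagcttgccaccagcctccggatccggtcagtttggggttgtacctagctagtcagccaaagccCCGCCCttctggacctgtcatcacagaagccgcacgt
The Gpr153 window was 76.8% GC and held 5 GC boxes, and the Fam214b window was 60.8% GC and held 1 beside a short tandem repeat. Each gene has a second RefSeq start whose window is not printed, with 1 GC box and 81.6% GC for Gpr153 and 3 GC boxes and 62.0% GC for Fam214b. The second Gpr153 window runs past the gene start given above, so part of it lies inside the gene. For neither Gpr153 start were the bases checked after it found in an annotated transcript, unlike for the other genes. The median of all windows was 52.4% GC. A GC box was found in 32.7% of 32851 promoter windows of this length and in at least 1 window of each of the 6 genes. The cAMP response element TGACGTCA, present in 1.55% of windows, was in none of theirs. Its half-site TGACG, present in 17.8% on either strand, was found once, upstream of Igdcc4. The TATA box TATAAA, present in 12.4%, was not found. These matches are letters in a window and not binding sites.

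The tissue labels were read against marker genes. Cerebellar granule and Purkinje cell markers summed to 4598 to 6324 CPM in wild-type cerebellum and 226.8 to 435.7 CPM in wild-type brainstem, and cortical glutamatergic markers to 2578 to 7228 CPM in wild-type cortex and 280.4 to 820.8 CPM in wild-type brainstem. Striatal projection neuron markers (11 of 14 listed were measured) summed to a median of 4704 CPM in wild-type striatum and 456.3 CPM in wild-type brainstem. Within striatum, however, the wild-type libraries differed widely among themselves, from 2189 to 9584 CPM, and the SCA3 libraries ran from 5942 to 8691 CPM. Thalamic markers (10 of 12 measured), which mark a neighbouring region, summed to between 118 and 2390 CPM in wild-type striatum and between 115.8 and 368.9 CPM in SCA3 striatum, and all 10 had a negative fold change, 7 of them past the FDR threshold. Wild-type mice 9082857 and 9083371 had the lowest thalamic sums of their group (118 and 136.1 CPM) and the highest projection neuron sums (9584 and 9203 CPM), and both values lay near or beyond those of the SCA3 libraries. All 11 projection neuron markers had a positive fold change, and none passed, with a median of 0.54 on the log2 scale. The thalamic list is not exclusive to thalamus, since it summed to 1208 to 1527 CPM in wild-type cerebellum. All 12 mature oligodendrocyte markers also had a negative fold change in striatum, 6 of them called. None of these markers was at 0 counts in a striatal library. In bulk tissue a change in the number of cells of a type and a change in the RNA per cell cannot be told apart.

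**Figure D1:**
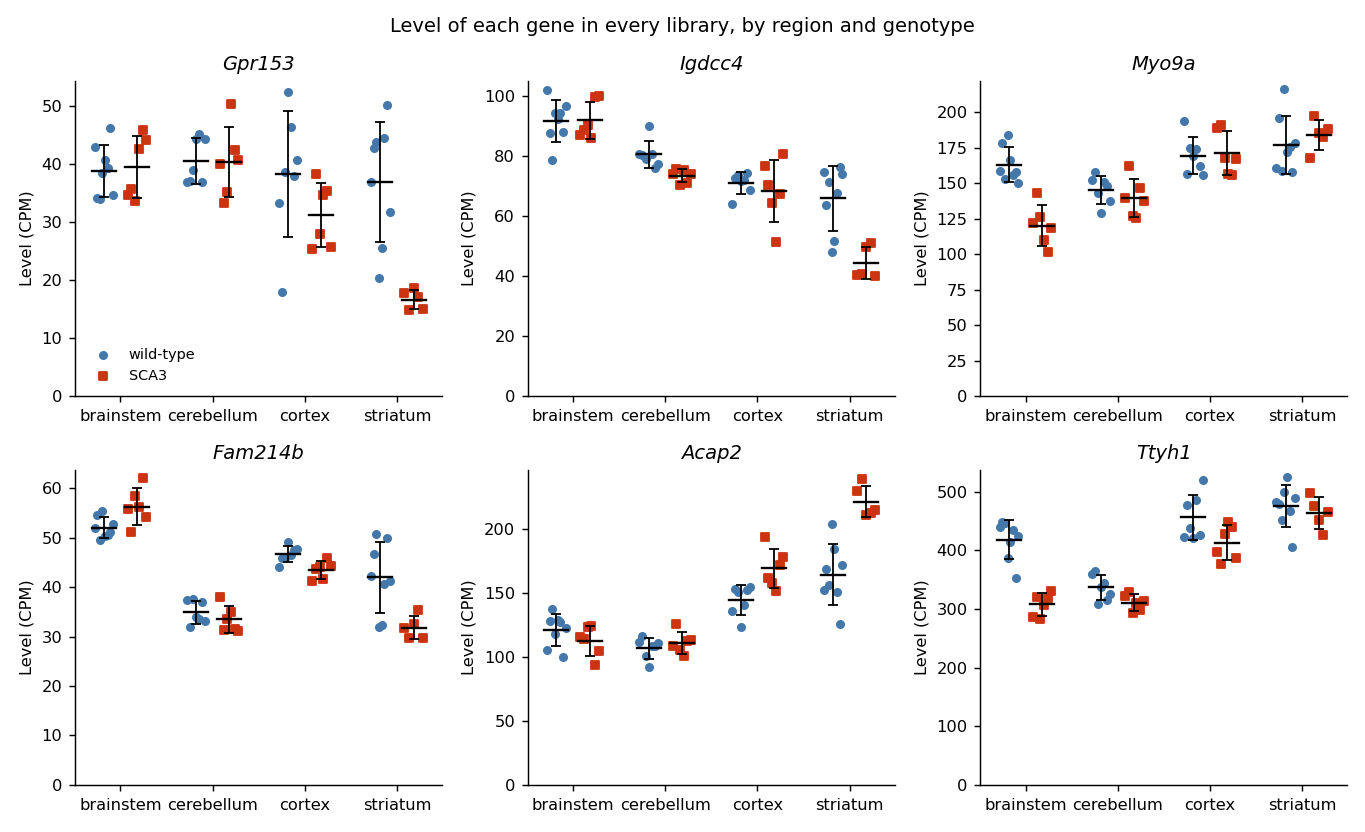
Level of the 6 genes (CPM, vertical axis) in every library of the 4 regions, wild-type as blue circles and SCA3 as red squares, with the mean and SD of each group in black. Gpr153, Igdcc4 and Fam214b were low and Acap2 was high in SCA3 striatum, while Myo9a and Ttyh1 were low in SCA3 brainstem.

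Of the surface proteins, Gpr153 had nearly equal levels in the 4 wild-type regions and a low level in SCA3 striatum. In SCA3 striatum it was at 17.7, 14.8, 18.6, 17.1 and 15.0 CPM, a mean of 16.6 ± 1.68 CPM (SD, n = 5). The 8 wild-type striatal libraries had a lowest value of 20.3, a median of 39.8 and a highest value of 50.2 CPM. The groups did not overlap, but wild-type mice 9082857 (20.3 CPM) and 9083371 (25.5 CPM), whose thalamic sums were as low as those of SCA3 mice, were the nearest to the SCA3 values. The SCA3 level was 0.45 of the wild-type level (95% interval 0.361 to 0.561), a log2 fold change of -1.15 ± 0.16 (SE). In the other regions the fold changes were 0.02 in brainstem, -0.01 in cerebellum and -0.29 in cortex, where the ranges overlapped.

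Igdcc4 had its highest level in wild-type brainstem and its lowest in wild-type striatum. In SCA3 striatum it was at 40.5, 40.7, 49.6, 51.0 and 40.1 CPM against a wild-type lowest value of 47.9, a median of 69.5 and a highest value of 76.3 CPM. The ranges overlapped through wild-type mouse 9082857 (47.9 CPM), with mouse 9083371 at 51.6 CPM just above the highest SCA3 value, and the other 6 wild-type libraries were at 63.5 CPM or more. The log2 fold change was -0.57 ± 0.09 (SE). It was 0.00 in brainstem and -0.05 in cortex. In cerebellum the fold change was only -0.13 ± 0.09 (SE), yet all 6 SCA3 libraries (70.3 to 75.6 CPM) lay below the 7 wild-type libraries (75.8 to 89.8 CPM).

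Of the intracellular proteins, Myo9a was low in SCA3 brainstem. The 6 SCA3 brainstem libraries had a lowest value of 101.3, a median of 120.0 and a highest value of 143.0 CPM. The 8 wild-type libraries had a lowest value of 150.3, a median of 158.0 and a highest value of 184.1 CPM. The groups did not overlap, and the log2 fold change was -0.44 ± 0.07 (SE). In the other regions it was between -0.06 in cerebellum and 0.06 in striatum, and the ranges overlapped in each.

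Acap2 was the only gene of the 6 with a higher level in its leading region. In SCA3 striatum it was at 229.9, 239.1, 211.3, 212.8 and 214.6 CPM, all above the highest wild-type value of 204.1 CPM. The wild-type libraries had a median of 162.7 and a lowest value of 125.8 CPM, and the highest was again that of mouse 9082857. The log2 fold change was 0.43 ± 0.08 (SE). Cortex had the same sign at 0.23 ± 0.08 (SE), with 5 of 6 SCA3 libraries above the highest wild-type value of 154.5 CPM, and brainstem the opposite sign at -0.10.

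Ttyh1 was low in SCA3 brainstem, where the 6 SCA3 libraries ran from 282.8 to 330.6 CPM with a median of 313.4 CPM. The 8 wild-type libraries ran from 352.2 to 448.2 CPM with a median of 429.3 CPM, so the groups did not overlap. The log2 fold change was -0.44 ± 0.06 (SE). It was negative in every region, at -0.12 ± 0.06 in cerebellum, -0.14 ± 0.06 in cortex and -0.04 ± 0.06 in striatum, where the ranges overlapped. The overlapping antisense gene 9430041J12Rik had a fold change of -0.34 ± 0.11 (SE) in brainstem at FDR = 0.0585 and D030047H15Rik one of -0.20 ± 0.15 (FDR = 0.613). Their mean levels were low, at 7.33 and 17.4 CPM.

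Fam214b had the smallest striatal difference of the genes that were lower there. In SCA3 striatum it was at 31.8, 29.8, 32.4, 35.4 and 29.7 CPM, and in wild-type striatum it had a lowest value of 31.9, a median of 41.7 and a highest value of 50.7 CPM. Wild-type mice 9082857 (31.9 CPM) and 9083371 (32.4 CPM) lay within the SCA3 range and the other 6 above it. The log2 fold change was -0.40 ± 0.08 (SE). In brainstem the sign was the opposite, at 0.11 ± 0.07, with 4 of 6 SCA3 libraries above the highest wild-type value of 55.3 CPM.

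**Figure D2:**
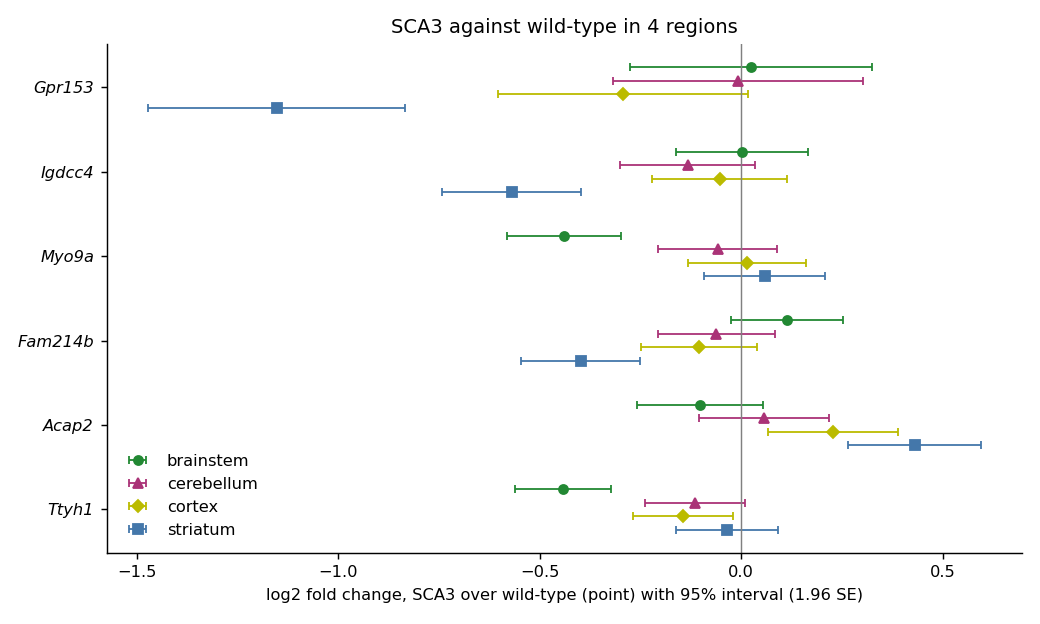
Log2 fold change of SCA3 over wild-type (horizontal axis) for the 6 genes in each region, with bars for the 95% interval of the estimate. The value farthest from 0 was in striatum for Gpr153, Igdcc4, Fam214b and Acap2 and in brainstem for Myo9a and Ttyh1, and the genes were selected for such differences. For Acap2 the intervals of striatum and cortex overlapped.

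Each of the 6 genes was called at an FDR below 0.05 in 1 region, and this count is part of the selection. In striatum 3 were lower, where 5.47% of all genes were called lower, and 1 was higher, where 2.07% were called higher (7.54% in either direction). In brainstem 2 were lower, where 1.15% of all genes were called lower, 0.776% higher and 1.92% in either direction. None was called in cerebellum or cortex, where 0.0647% and 0.154% of all genes were called. The ranges of SCA3 and wild-type libraries did not overlap for 2 of the 6 genes in striatum (0.655% of all genes), 2 in brainstem (1.38%), 1 in cerebellum (0.234%) and 0 in cortex (0.251%). Of the 27 genes called for region dependence, 23 were called in 1 region, 3 in 2 regions and 1 in 3 regions.

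Mouse numbers fall into 3 series, which were taken as possible batches. In the series with 3 wild-type and 2 SCA3 striatal libraries the log2 differences between group means were -1.34 for Gpr153, -0.78 for Igdcc4, -0.59 for Fam214b and 0.56 for Acap2. In the series with 4 and 2 libraries they were -1.20, -0.56, -0.32 and 0.45. In the smallest series, with 1 mouse of each genotype (wild-type 9082857), they were -0.13, 0.05, 0.02 and 0.05. In brainstem they were -0.31, -0.52 and -0.55 for Myo9a and -0.55, -0.34 and -0.45 for Ttyh1 in series of 5, 7 and 2 libraries. The ranges of Myo9a and Ttyh1 in brainstem, and of Gpr153 and Acap2 in striatum, did not overlap between genotypes, which fixes the sign in any split of those libraries.

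The striatal genes were then set beside the marker sums of the same libraries. Deviations from the genotype means were related to marker scores (mean log2 CPM of a list) and to the RNA integrity number (RIN) over the libraries of each gene's leading region, giving 30 relations tested by 100000 permutations within genotype. Fam214b followed the projection neuron score closely, with Pearson's r = -0.96 (permutation p adjusted over the 30 relations 0.0006) and Spearman's rho = -0.96 (0.0012) over 13 libraries. It followed the thalamic score with r = 0.82 (0.041) and rho = 0.85 (0.0246). Without the 2 libraries farthest from the median score these r were -0.95 and 0.79. For Gpr153 and Igdcc4 the r with the projection neuron score were -0.82 and -0.77 (both 0.041), the rho were -0.67 (0.221) and -0.71 (0.09), and r without the 2 farthest libraries was -0.77 and -0.74. The projection neuron sums of the 2 wild-type mice named above stand apart from the other 6 of their group, and no r was computed without both of these mice. Gpr153 had r = 0.75 with the thalamic score (adjusted permutation p = 0.101), rho = 0.76 (0.09) and r = 0.80 without the 2 farthest libraries. Igdcc4 had r = 0.565 with that score (adjusted permutation p = 0.265), rho = 0.53 (0.298) and r = 0.78 without the 2 farthest libraries. No relation of Acap2 passed. With the projection neuron score its r was 0.65 (adjusted permutation p = 0.265), its rho 0.55 (0.303) and its r without the 2 farthest libraries 0.59. With the thalamic score its r was -0.47 (adjusted permutation p = 0.518), its rho -0.60 (0.253) and its r without the 2 farthest libraries -0.735.

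**Figure D3:**
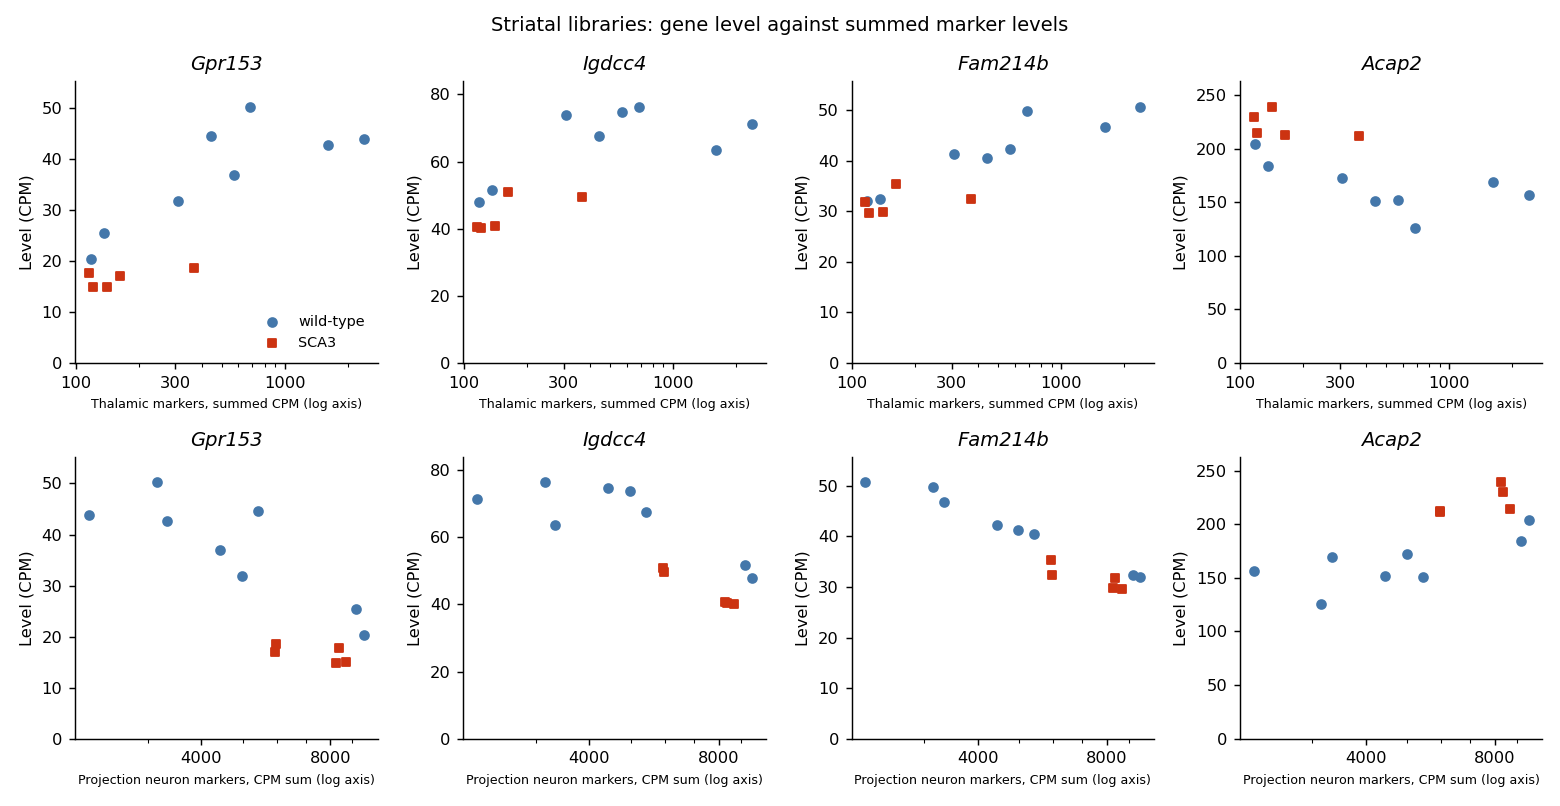
Levels of the 4 genes with a striatal difference (CPM, vertical axis) in each striatal library against the summed level of thalamic markers (upper row) and of projection neuron markers (lower row), both on log axes, with wild-type as blue circles and SCA3 as red squares. The wild-type libraries with the lowest thalamic sums, 118 and 136.1 CPM, had the wild-type levels nearest to or within the SCA3 range of each gene.

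Striatal libraries were also fitted alone, without and with a marker score as a covariate. Without a covariate the log2 fold change was -1.15 for Gpr153 (edgeR FDR = 3.38e-05), -0.57 for Igdcc4 (0.00784) and 0.43 for Acap2 (0.0186). That of Fam214b was -0.40 and did not pass in this fit (0.115), before any score was added. With the thalamic score the log2 fold change of Gpr153 was -0.86 (edgeR FDR = 0.000261), that of Igdcc4 -0.44 (0.069), that of Acap2 0.35 (0.0983) and that of Fam214b -0.21 (0.576). With the astrocyte score, whose markers were lower in SCA3 striatum in 10 of 12 cases with 5 called, they were -0.96 (0.00367), -0.49 (0.0896), 0.39 (0.105) and -0.24 (0.518). With the projection neuron score, a covariate chosen after seeing the data, Gpr153 was at -0.78 (FDR = 0.000228), Igdcc4 at -0.37 (0.148), Acap2 at 0.31 (0.24) and Fam214b at -0.16 (0.998). With the oligodendrocyte score, also chosen after seeing the data, Gpr153 was at -1.10 (FDR = 0.000185), Igdcc4 at -0.60 (0.0036), Acap2 at 0.44 (0.0185) and Fam214b at -0.35 (0.172). Gpr153 was past the threshold with each of the 4 scores and Fam214b with none. Igdcc4 and Acap2 were past it with the oligodendrocyte score and not with the other 3. All 4 genes kept their direction. Their striatal differences are part of the selection, so these FDR values describe the fits and do not test the genes anew.

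In brainstem, markers of other cell types also moved. Of 12 astrocyte markers 11 had negative fold changes and 4 were called, with sums of 4495 to 9505 CPM in wild-type and 4068 to 5973 CPM in SCA3 libraries. All 12 mature oligodendrocyte markers had negative fold changes, and 4 were called, with sums of 10790 to 22360 CPM and 9788 to 16460 CPM. No measured marker of either list was at 0 counts. RIN was 6.3 to 7.6 in wild-type and 7.4 to 8 in SCA3 brainstem. The relations of Myo9a and Ttyh1 with these 2 scores and with RIN within genotype had r between -0.21 and 0.285 and rho between -0.0927 and 0.0593 over 14 libraries, with adjusted permutation p-values of 0.72 or more for r and 0.959 for rho. Without the 2 farthest libraries r ran from -0.441 for Ttyh1 with the astrocyte score, where the sign turned from 0.285, to 0.102 for Myo9a with the same score, and Myo9a with RIN went from 0.0934 to -0.309. The largest r in brainstem was that of Myo9a with the thalamic score, at -0.42 (adjusted permutation p = 0.498), with rho = -0.33 (0.636) and r = -0.54 without the 2 farthest libraries. In the brainstem libraries alone Myo9a had a log2 fold change of -0.42 with the oligodendrocyte score as a covariate (FDR = 0.000431) and Ttyh1 one of -0.40 (4.94e-05), a fit chosen after seeing the data. With the astrocyte score the values were -0.43 (FDR = 0.000493) and -0.39 (0.000119), and with RIN as a covariate in all 53 libraries -0.45 (2.7e-06) and -0.42 (2.89e-08). The RIN ranges of the genotypes in brainstem overlap only between 7.4 and 7.6, and no fit held a marker score and RIN together.

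**Figure D4:**
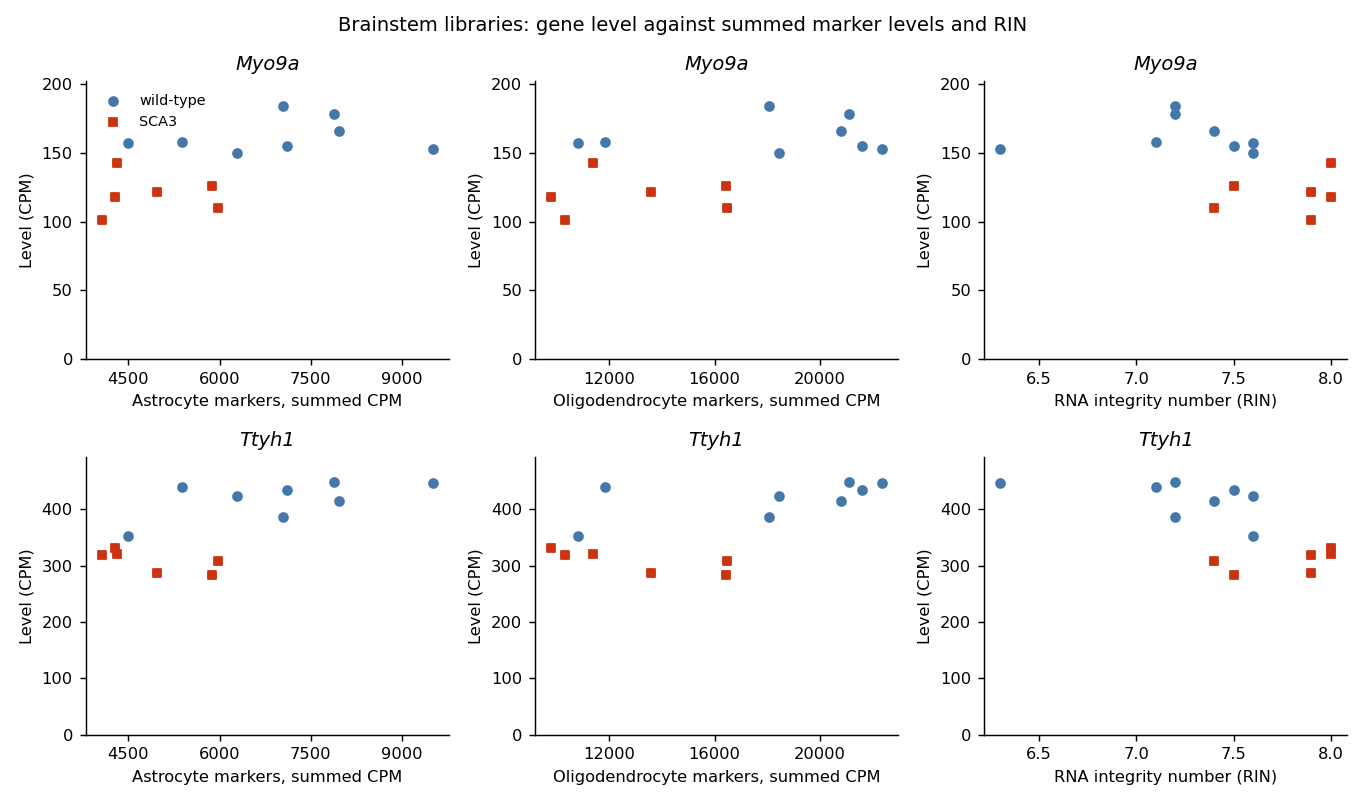
Levels of Myo9a (upper row) and Ttyh1 (lower row) in CPM in each brainstem library against summed astrocyte markers, summed oligodendrocyte markers (both CPM) and RIN, with wild-type as blue circles and SCA3 as red squares. The SCA3 libraries lay below the wild-type libraries for both genes, at 143.0 CPM or less against 150.3 CPM or more for Myo9a and at 330.6 CPM or less against 352.2 CPM or more for Ttyh1.

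Differences in level between regions of wild-type mice were tested. They were not the selection rule itself, but the wild-type libraries form part of it. These tests are therefore not fully independent of the selection. All 6 pairs of regions were tested for each gene, against a background in which 72.6% of all genes differed between brainstem and cerebellum, 65.4% between brainstem and cortex, 64.2% between brainstem and striatum, 69.7% between cerebellum and cortex, 69.5% between cerebellum and striatum and 34.4% between cortex and striatum. Of the 36 pairs 24 passed an FDR of 0.05. Among the 18 pairs of neighbours in the order of levels 10 passed, 11 with the mouse as a random block and 5 with the mouse as a fixed block.

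Gpr153 showed no difference past the threshold between regions of wild-type mice, with means of 40.5 ± 3.92 CPM in cerebellum (SD, n = 7), 38.8 ± 4.44 in brainstem (n = 8), 38.2 ± 10.9 in cortex (n = 7) and 37.0 ± 10.3 in striatum (n = 8). The smallest FDR of its 6 pairs was 0.424. Igdcc4 had the order brainstem (91.6 ± 6.92 CPM), cerebellum (80.5 ± 4.52), cortex (70.9 ± 3.61) and striatum (65.9 ± 10.8). The first 2 steps passed (FDR = 0.0274 and 0.041, but 0.0502 and 0.0781 with the fixed mouse block) and the step from cortex to striatum did not (0.302). The mean of its SCA3 striatum, 44.4 ± 5.42 CPM (n = 5), lay below the mean of each wild-type region, without a test.

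Fam214b had the order brainstem (52.0 ± 2.08 CPM), cortex (46.7 ± 1.58), striatum (42.0 ± 7.13) and cerebellum (34.9 ± 2.33). Brainstem exceeded cortex (FDR = 0.038, but 0.11 with the fixed block) and striatum exceeded cerebellum (0.000268), whereas the step from cortex to striatum did not pass (0.0623, but 0.0191 with the random block). Myo9a levels in striatum (176.8 ± 20.3 CPM), cortex (169.3 ± 13.2) and brainstem (162.9 ± 12.3) showed no step past the threshold (0.512 and 0.489), and only cerebellum was lower (145.4 ± 9.82, FDR = 0.0273 against brainstem).

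Acap2 and Ttyh1 had the same order of regions, with striatum first and cerebellum last. The means of Myo9a had this order too, though of its steps only the last passed. Acap2 was at 164.4 ± 23.7 CPM in striatum, 144.6 ± 11.5 in cortex, 121.0 ± 12.7 in brainstem and 106.9 ± 8.1 in cerebellum, and all 3 steps passed (FDR = 0.0456, 0.00161 and 0.028), of which the first and the last did not with the fixed block (0.12 and 0.0778). Ttyh1 was at 474.8 ± 35.8 CPM in striatum, 456.0 ± 38.3 in cortex, 418.1 ± 33.4 in brainstem and 336.6 ± 21.5 in cerebellum. The step from striatum to cortex did not pass (0.466), cortex exceeded brainstem narrowly (0.0495) and brainstem exceeded cerebellum (2.76e-07). In SCA3 mice brainstem and cerebellum had nearly the same Ttyh1 level, at 307.8 ± 19.5 and 310.8 ± 13.9 CPM (n = 6 each).

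The closest relatives of the 6 genes were measured in the same libraries, and only Fam214a was called in any region. Fam214a was higher in SCA3 striatum, at 97.4 ± 17.9 CPM (SD, n = 5) against 75.1 ± 12.8 CPM (n = 8) in wild-type striatum, or 0.38 ± 0.11 on the log2 scale (SE, FDR = 0.0211). This difference did not pass in libraries with a RIN of at least 7 (FDR = 0.223) or in striatal libraries alone (0.198), where it was 0.23 with the thalamic score (0.784) and 0.28 with the astrocyte score (0.565) as a covariate, nor without mouse 7267054, 7267056, 7267059, 9083373 or 9083515 (0.0598 to 0.133). Its sign was thus opposite to that of Fam214b, and its region dependence did not pass (FDR = 0.566). Gpr162, the relative of Gpr153, had a striatal fold change of -0.18 ± 0.10 (FDR = 0.29). Myo9b in brainstem was at 0.01 ± 0.07 (FDR = 0.984) and Acap3 in striatum at 0.15 ± 0.15 (0.587). Ttyh2 and Ttyh3 had brainstem fold changes of 0.01 ± 0.15 and 0.05 ± 0.09 (0.988 and 0.862). Igdcc3 and Acap1 were not in the table and were not analysed here.

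Wider lists of related genes were counted without the 6 genes themselves, 145 of 166 listed genes being measured. The count in striatum rested on the fit of all regions together, since 0 were called in striatal libraries alone, where 88 of all genes were. In the joint fit 14 were called (9.66% of the 145 against 7.54% of all genes), 4 of them higher and 10 lower, and the median log2 fold change was 0.002 against -0.003 over all genes. In brainstem 2 were called (1.38% against 1.92%), and in cerebellum and cortex 0 were called by edgeR, with 0 and 8 at an unadjusted p below 0.05, and 0 also by the quasi-likelihood test, DESeq2 and limma-voom. No related gene was called for region dependence in all libraries by edgeR's likelihood ratio test, edgeR's quasi-likelihood test, DESeq2 or limma-voom, with 15 at an unadjusted p below 0.05 in the first.

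Of 16 measured DCC-like receptors and netrin pathway genes, 3 fell in striatum (18.8% against 7.54% of all genes called) and 1 rose in brainstem (6.25% against 1.92%). The striatal genes were the cell adhesion molecule Dscam (-0.88 ± 0.19, FDR = 0.000942), the netrin receptor Unc5b (-0.60 ± 0.16, FDR = 0.00794) and Ntng1, which encodes netrin-G1 (-1.41 ± 0.38, FDR = 0.0132). Ntng1 is strongly expressed in thalamus, and its wild-type striatal level of 71.5 ± 78.0 CPM varied more than its mean. The brainstem gene was the Dscam relative Dscaml1 (0.36 ± 0.09, FDR = 0.0121).

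Of 21 Arf GTPase-activating proteins, the group of Acap2, 1 (4.76% against 7.54% of all genes) was called in striatum, Arfgap3, which fell (-0.39 ± 0.10, FDR = 0.00888), and none was called in the other regions.

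Of 25 measured orphan receptors 1 (4% against 7.54%) was called in striatum, Gpr37l1, which is found mainly in astrocytes and fell (-0.40 ± 0.10, FDR = 0.00328). Of 26 tweety family members and chloride channels 2 were called in striatum, a share near that of all genes (7.69% against 7.54%), and 1 in brainstem (3.85% against 1.92%). The calcium-activated channel Ano1 (-1.22 ± 0.36, FDR = 0.0233) and its family member Ano10 (-0.36 ± 0.11, FDR = 0.0266) fell in striatum. Lrrc8d, a subunit of the volume-regulated anion channel, rose in brainstem (0.26 ± 0.06, FDR = 0.00482). In striatal libraries alone with the thalamic score as a covariate 1 of the 145 related genes was called.

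Genes with patterns most like the members' were listed by Pearson's r of log2 CPM over all 53 libraries, as a description in which region, genotype and depth are shared by all points. Gpr153 was most like Kcnip1 (r = 0.80), 1500009C09Rik (0.78) and Shd (0.78). Igdcc4 was most like Shd (0.92), Podxl2 (0.90) and Slc25a18 (0.90), and Fam214b most like Ctnnbip1 (0.94), Tmem246 (0.94) and Grip2 (0.93). Acap2 was most like Tlk1 (0.95), Skil (0.94) and Tacc1 (0.94), and Myo9a most like Mmp16 (0.827), Akap11 (0.826) and Gabrb1 (0.825). Ttyh1 was most like Grm3, a metabotropic glutamate receptor (0.89), the glial glutamate transporter Slc1a2 (0.89) and its own antisense gene 9430041J12Rik (0.86). In brainstem Slc1a2 and Grm3 were lower as well, at -0.83 (FDR = 2.42e-08) and -0.66 (FDR = 2.14e-05).

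Within the leading region, deviations from the group means gave other genes. In 13 striatal libraries Gpr153 was most like Sdc3 (r = 0.97), Dgkq (0.96) and Pias3 (0.96), Igdcc4 most like C77080 (0.97) and Grip2 (0.97), and Fam214b most like Gm10516 (0.97), Dgkq (0.95) and Nelfb (0.94). Acap2 was most like Arhgap32 (0.96), Atp2b1 (0.96) and Rasgef1b (0.96). In 14 brainstem libraries Myo9a was most like Dnajb14 (0.96), Usp9x (0.95) and Ppp1r9a (0.94), and Ttyh1 most like Gnao1 (0.84), Prnp (0.83) and F3 (0.83). The members also moved together within genotype in striatum. As a description over 13 libraries that share region and dissection, Gpr153 and Fam214b had r = 0.89, Igdcc4 and Fam214b 0.83 and Gpr153 and Igdcc4 0.78, and Acap2 had r of -0.86, -0.79 and -0.76 with Gpr153, Igdcc4 and Fam214b. In brainstem Myo9a and Ttyh1 had r = -0.14 over 14 libraries.

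The nearest protein-coding genes of the table on either side were examined last. Of 12 neighbours 3 were called in the leading region of their member, all in striatum. The 12 include the neighbours of Myo9a and Ttyh1, whose leading region was brainstem, where 1.92% of all genes were called. In striatum 7.54% of all genes were called in the joint fit, 5.47% lower and 2.07% higher. In striatal libraries alone 88 in place of 933 genes were called. Acot7, 2.38 kb from Gpr153, fell in striatum (-0.31 ± 0.10, FDR = 0.0374), as did Parp16, 57.4 kb from Igdcc4 (-0.69 ± 0.14, FDR = 0.000348), whereas Ppp1r2, 50.3 kb from Acap2, rose there (0.51 ± 0.13, FDR = 0.00554). Each had the sign of the member beside it, and a link between them was not tested. Neither neighbour of Myo9a, Fam214b or Ttyh1 was called in any region.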

How the data were processed

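Poly-A RNA of 4 brain regions was sequenced without strand information. The authors deposited raw read counts per gene, made by alignment to GRCm38 (STAR 2.3.0e) and counting of uniquely aligned reads over RefSeq genes (HTSeq 0.6.1), per the labels, and kept expressed genes only. Counts were normalised by TMM and fitted in 1 edgeR model (4.0.16) of 8 groups of region and genotype. Genotype effects, region dependence (the 3 interactions together) and wild-type regions were tested by likelihood ratio with Benjamini-Hochberg FDR over all 12372 genes. The genotype contrast within each region follows the study's methods, whereas the tests of the interactions alone and between wild-type regions do not come from them. The members and gene lists were chosen with earlier results of these data known. Named genes were the members, their closest relatives, related genes past FDR 0.05, and the 3 most alike by each correlation. Scripts were tested on simulated data. The regions came from the same mice, and deviations of the same mouse correlated by a mean of 0.0904 to 0.186 over the 6 region pairs. Alternatives used DESeq2 1.42.0, limma 3.58.1, RLE scaling, a count filter, RIN, mouse series, marker scores, the mouse as a block and omission of each mouse. Positions are from the GENCODE annotation of GRCm38, and promoters from RefSeq (GRCm38.p6), in which all 6 genes were matched. Protein sequences were not used here. Some related and most alike genes are not reported here.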

Additional observations from a re-analysis of the deposited data

Results flagged for a closer look

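In cerebellum, Igdcc4 in wild-type mouse 9083371 was at 89.8 CPM, set apart from the other 6 wild-type libraries, of which the nearest was at 80.6 CPM. It was the only outlying library in 48 groups examined over the 6 genes, and chance gives about 1 in 20. The SCA3 effect differed between regions for each gene by the test that selected them, with an edgeR FDR of 0.00127 for Gpr153, 0.00948 for Myo9a, 0.0179 for Igdcc4, 0.0259 for Fam214b, 0.0259 for Ttyh1 and 0.0314 for Acap2, so these values are no independent evidence.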

How the results depend on the processing

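The log2 fold change of each of the 6 genes in its leading region kept its direction in all 28 alternatives. Gpr153, Myo9a and Ttyh1 also stayed past the threshold in all 28, and all 6 genes were called when any 1 mouse was left out. These contrasts are part of the selection and were refitted on the same or nearly the same libraries. They describe the fits and are no independent evidence. With the thalamic, the astrocyte or the projection neuron score (the last chosen after seeing the data) 3 of the 6 were called. In the regions alone without a score 5 were called, Fam214b being lost (FDR = 0.115). Region dependence was less stable. The 27 genes and 6 members called became 1 and 0 with the quasi-likelihood test (no member passed, FDR 0.0547 to 0.156), 3 and 1 with limma-voom, and 5 and 2 at a RIN of at least 7, while DESeq2 called 51 genes. Leaving out 1 mouse gave 3 to 263 genes and 1 to 6 members, with 1 member without SCA3 mouse 9083515 and 2 without 7267054, 7267056, 7267058, 7267059 or 9083372. With the mouse as a random replicate block 4 genes and 2 members were called, and with a fixed block 36 and 6. The block also moved wild-type neighbour steps from 10 to 11 (random) or 5 (fixed), and changed no other count by more than 1.5 times against the same tool without it. The wild-type steps ran from 4 to 11 without 1 mouse.

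In the regions alone, then with the thalamic and with the astrocyte score, 392, 710 and 1169 genes were called in brainstem, 21, 62 and 26 in cerebellum, 35, 68 and 30 in cortex, and 88, 58 and 84 in striatum. Related genes numbered 4, 9 and 18 in brainstem and 0, 1 and 0 in striatum, with 2 in cortex with the thalamic score. At a RIN of at least 7 striatum had 139 genes and 1 related gene, and cortex 1 related gene. By limma-voom without and with the block, cerebellum had 5 and 5 genes, cortex 11 and 9, and striatum 9 and 9 related genes. Leaving out 1 mouse gave 120 to 309 genes and 1 to 3 related genes in brainstem, 5 to 12 genes in cerebellum, 11 to 28 genes and 0 to 1 related genes in cortex, 297 to 1833 genes and 4 to 26 related genes in striatum, and 0 to 2 related genes for region dependence. The causes of these shifts were not tested. Groups held 5 to 8 mice, and the effect of depth was not tested.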
